A study of Mus musculus with 2 samples.

Results

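Egr1, Klf2, Klf6, Nr4a1, Ier2, Ier3, Btg2, Zfp36 and Dusp1 are 9 early response genes, taken by symbol from the 27998 genes in the count matrices, and all 9 were found. They were measured in lung cells of male mice sorted by flow cytometry for EpCAM and against CD31, CD34, CD45, CD24 and Sca-1. The labels name the sorted cells alveolar type 2 (AT2) cells, the surfactant-making cells of the alveolus. There were 2 single-cell libraries, 1 labelled IP-/- (IPKO), for mice without the prostaglandin I2 receptor encoded by Ptgir, and 1 labelled WT. The labels give no injury, treatment, age or strain and do not say how many mice went into a library. The series title names JUN, and the levels of the 9 genes were therefore set beside Jun, an AP-1 subunit, and beside Hspa1a, an inducible heat shock protein 70.

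Early response genes are transcribed within minutes of a stimulus from factors already present in the cell, among them SRF, CREB and ELK proteins activated by MAP kinases, and their messengers are mostly short-lived. They respond to growth factors and injury signals, and also to the enzymes, warming and handling used to dissociate a tissue. In endothelium, KLF2 is known for its induction by shear stress.

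The Ptgir counts ran against the labels. In AT2 cells Ptgir had 314 UMIs (unique molecular identifiers, 1 per captured transcript) in the library labelled IPKO and 0 in the library labelled WT, where the exact upper limit was 0.0303 counts per 1000000 UMIs (CPM). Over all kept cells Ptgir had 328 UMIs labelled IPKO and 1 labelled WT. Tags that lie outside the deleted stretch of a gene cannot check a deletion, and whether the labels were swapped was not tested. Directions are given here between libraries as labelled, not between genotypes. With 1 library per label no difference could be tested, and all intervals are exact 95% intervals that cover counting error only. The matrices held 10014 barcodes and 137471506 UMIs labelled IPKO, and 8924 barcodes and 127287281 UMIs labelled WT, with 79 barcode sequences in both. After filtering, cells with at least 10% of their UMIs from Sftpc, the surfactant protein C gene, were taken as AT2 cells: 7465 of 8072 kept cells labelled IPKO and 6422 of 6745 labelled WT. All 11 AT2 markers were detected in both, and the medians per cell were 17061 UMIs labelled IPKO and 18307 labelled WT. Mitochondrial transcripts made up a median of 3.91% of UMIs in AT2 cells labelled IPKO and 5.24% in those labelled WT. Endothelial-like cells, which the CD31 gate should exclude, numbered 65 in each library.

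In AT2 cells 7 of the 9 genes were at least 1.5-fold higher in the library labelled IPKO than in the library labelled WT, none was 1.5-fold lower, and Btg2 and Ier3 stayed within that range. Across the 8500 genes that averaged 5 CPM or more, which include all 9, 1.69% were at least 1.5-fold higher and 1.51% at least 1.5-fold lower. The median log2 ratio was 0.76 for the 9 genes and 0.06 for all 8500. Jun itself stood at 1443 CPM labelled IPKO and 770 CPM labelled WT (log2 ratio 0.91), and Hspa1a at 558 and 79.6 CPM (2.81). Because the kit counts 1 tag per transcript, CPM values are not scaled by gene length.

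Among the DNA-binding members, Klf2, a Krüppel-like factor known for keeping endothelial and T cells quiescent, had the largest ratio and the smallest level. It had 37.6 CPM (interval 36.6 to 38.7) in AT2 cells labelled IPKO and 8.63 CPM (8.12 to 9.17) in those labelled WT. Its log2 ratio of 2.12 (2.03 to 2.22) ranked 8 of the 8500 genes from the highest. Egr1, a zinc finger factor and a classic SRF target, had 357 CPM labelled IPKO and 177 CPM labelled WT, a log2 ratio of 1.02 (0.99 to 1.04) that ranked 34. Nr4a1, an orphan nuclear receptor, had 51.4 and 24.4 CPM, a ratio of 1.07 (1.01 to 1.14). Klf6, a factor tied to injury repair in several tissues, had 222 CPM labelled IPKO and 131 CPM labelled WT (0.76, interval 0.73 to 0.79). The intervals of the levels did not overlap between the libraries for any of these 4 factors. Such counting intervals are narrow in pools of this depth, and the share of the 8500 genes without overlap was not computed.

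**Figure D1:**
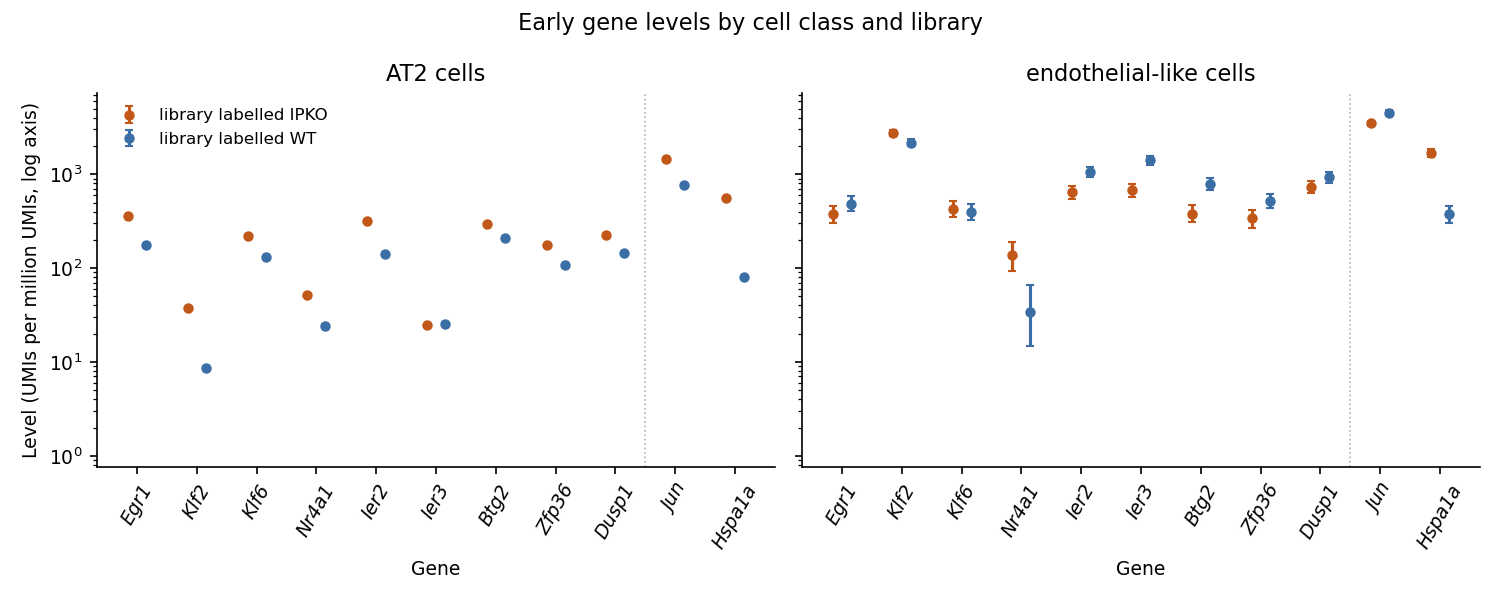
Level of each gene in CPM (log axis) in AT2 cells (left) and endothelial-like cells (right) of the library labelled IPKO (orange) and the library labelled WT (blue), with 95% counting intervals. In AT2 cells every orange point but that of Ier3 lies above its blue point, while in endothelial-like cells 6 of the 9 are below it, such as Btg2 at 380 CPM labelled IPKO and 792 CPM labelled WT.

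The immediate early response genes Ier2 and Ier3 differed from each other. Ier2, a small nuclear protein, had 317 CPM in AT2 cells labelled IPKO and 141 CPM in those labelled WT, a log2 ratio of 1.16 (1.14 to 1.19) that ranked 24. Ier3, a survival and stress gene also known as IEX-1, had 24.6 and 25.5 CPM, and the interval of its ratio held 0 (-0.05, interval -0.12 to 0.02). It was the only one of the 9 whose interval did. With TMM scaling the ratio of Ier3 was -0.12.

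The other members act on messengers or on signalling. Zfp36, or tristetraprolin, which marks AU-rich messengers for decay, had 177 CPM labelled IPKO and 109 CPM labelled WT (log2 ratio 0.70, interval 0.67 to 0.73). Dusp1, a phosphatase that switches off MAP kinases, had 225 and 146 CPM (0.62, 0.60 to 0.65). Btg2, an antiproliferative cofactor of messenger deadenylation, had 299 and 211 CPM (0.50, 0.48 to 0.53), which is under 1.5-fold although its ratio ranked 215. Dusp1 was just past the 1.5-fold line and Btg2 just short of it. With TMM scaling Dusp1 also fell short (0.55).

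Promoter sequences of 7 of the 9 genes were found in the RefSeq table of GRCm38.p6, which gave the 250 bases before each start. For Nr4a1, Dusp1 and Zfp36 this window lies wholly inside the gene span given below. Bases before any other start of a gene were not searched. They were searched on both strands for the CArG box bound by SRF, the cAMP response element TGACGTCA (CRE), the heat shock element GAANNTTC and the EGR site GCGTGGGCG. After the letters were read, the CRE core TGACG, which a full CRE holds on both strands, and the MEF2 site were added. A full CRE was found in Btg2 and Dusp1, against 1.55% of all 32851 promoters, and a CArG box in Zfp36, against 1.47%. The MEF2 site was found in Klf2, against 2.92%. The CRE core was found in 4 of the 7 (Klf2, Nr4a1, Btg2 and Dusp1), against 17.8% of all promoters. Nr4a1 had 4 cores and Dusp1 3, of which 2 lie in its CRE, while 0.688% of promoters had at least 3. The core and the MEF2 site were picked from these same letters. Their shares therefore cannot tell whether the members differ from other promoters. No heat shock element (6.69% of promoters) or EGR site (0.536%) was found in these 7 windows. The 5 promoters with such a match are shown so that the letters can be read beside the levels of their genes. Each runs 5′ to 3′ on the strand of its gene up to the base before the start, and capitals mark the CArG box, CRE, CRE core or MEF2 site.
Klf2 (chr8:72318812-72319061, plus strand): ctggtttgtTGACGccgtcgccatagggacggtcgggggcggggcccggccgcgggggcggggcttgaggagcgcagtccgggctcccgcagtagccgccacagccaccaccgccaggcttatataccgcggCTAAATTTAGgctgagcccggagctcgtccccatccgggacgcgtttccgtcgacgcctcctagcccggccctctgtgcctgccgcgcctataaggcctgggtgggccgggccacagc
Nr4a1 (chr15:101266596-101266845, plus strand): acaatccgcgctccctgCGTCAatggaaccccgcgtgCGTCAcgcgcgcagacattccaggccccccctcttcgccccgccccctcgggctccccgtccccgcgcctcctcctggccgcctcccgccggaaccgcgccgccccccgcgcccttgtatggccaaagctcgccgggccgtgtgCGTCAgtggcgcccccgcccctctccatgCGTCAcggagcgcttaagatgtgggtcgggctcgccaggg
Zfp36 (chr7:28379229-28379478, minus strand): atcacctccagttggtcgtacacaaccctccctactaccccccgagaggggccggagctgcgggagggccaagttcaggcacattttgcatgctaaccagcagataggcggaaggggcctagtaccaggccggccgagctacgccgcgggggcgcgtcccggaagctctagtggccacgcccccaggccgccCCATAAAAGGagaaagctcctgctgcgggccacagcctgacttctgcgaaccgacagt
Btg2 (chr1:134079156-134079405, minus strand): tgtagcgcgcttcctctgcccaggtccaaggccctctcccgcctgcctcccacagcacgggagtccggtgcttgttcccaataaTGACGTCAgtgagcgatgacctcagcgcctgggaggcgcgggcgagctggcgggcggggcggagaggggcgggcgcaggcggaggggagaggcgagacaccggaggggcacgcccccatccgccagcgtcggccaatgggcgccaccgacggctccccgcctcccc
Dusp1 (chr17:26508473-26508722, minus strand): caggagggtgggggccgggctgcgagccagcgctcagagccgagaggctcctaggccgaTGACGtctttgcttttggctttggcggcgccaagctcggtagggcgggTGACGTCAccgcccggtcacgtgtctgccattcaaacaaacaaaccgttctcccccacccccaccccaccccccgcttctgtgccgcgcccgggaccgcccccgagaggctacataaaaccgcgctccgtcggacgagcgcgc
The CRE of Btg2 ended 158 bases before the start and that of Dusp1 135 bases before it, and the CArG box of Zfp36 ended 48 bases before it. The MEF2 match of Klf2, the gene with the largest ratio, ended 108 bases before the start. The cores of Nr4a1 ended 228, 208, 64 and 35 bases before it, that of Klf2 236 bases and the one outside the CRE of Dusp1 186 bases before it. A match describes the letters and not a bound factor.

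The transcripts also shared features at their 3′ ends. The AU-rich heptamer TATTTAT was present in the 3′ UTR of 6 of the 9 genes in the longest UTR annotated in GENCODE vM21, against 31.6% of 8154 genes of the 8500 that had one. It occurred at least 2 times in 4 members (Ier3 with 4, Zfp36 and Dusp1 with 3 each, Klf6 with 2), against 11.03% of those genes, or 9.63% of the 4766 whose UTR was 543 to 3111 bases long, like those of the members. The ratios in AT2 cells were mostly smaller with more copies, and Klf2 and Btg2 stood outside that order. Ier3, with the most copies, was at 0.97-fold, with an interval that held no difference. Egr1, Nr4a1 and Ier2, with none, were at least 2.02-fold higher labelled IPKO. Klf2 and Btg2, with 1 copy each, were 4.36-fold and 1.42-fold higher. Klf6, with 2, was 1.69-fold higher, and Zfp36 and Dusp1, with 3, were 1.62-fold and 1.54-fold higher. A relation between copies and ratio was not tested. The transcripts of the 9 members had 1 to 8 exons, with Ier2 in a single exon, against a median of 9 over the 8154 genes.

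By position on GRCm38, Klf2 (chr8:72319033-72321656, plus strand) and Ier2 (chr8:84661331-84662852, minus) lie on chromosome 8, and Ier3 (chr17:35821684-35822923, plus) and Dusp1 (chr17:26505590-26562128, minus) on chromosome 17. Klf6 lies at chr13:5861482-5870394 (plus), Nr4a1 at chr15:101254269-101274795 (plus), Btg2 at chr1:134075170-134079120 (minus), and Egr1 on chromosome 18. Zfp36 (chr7:28376784-28380253, minus) is on the chromosome of Ptgir, 11.5 Mb from it. Zfp36 overlaps the antisense gene Gm44710, and Dusp1 overlaps Ergic1 on the other strand and 3 small annotated genes. Jun and Hspa1a overlap antisense genes too, and the submitters' notes do not say whether counting used strand, so reads of these genes may not be fully separable from their partners.

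The higher levels in AT2 cells labelled IPKO showed both as more cells with a UMI and as more UMIs in those cells. Cells were compared after each was reduced at random to 3000 UMIs, leaving 7444 cells labelled IPKO and 6404 labelled WT and leaving out 21 and 18 shallower ones. Egr1 was detected in 47.6% of cells labelled IPKO (46.4% to 48.7%) and 29.9% of those labelled WT (28.8% to 31.1%). Without this thinning the shares were 73.3% and 59.1%. Cells positive for Egr1 held a mean of 2.34 UMIs labelled IPKO and 1.86 labelled WT. Klf2 was detected in 8.80% of cells labelled IPKO and 2.31% labelled WT, Nr4a1 in 12.4% and 6.37%, Ier2 in 48.5% and 30.6%, and Klf6 in 39.3% and 28.2%. The shares for Zfp36 were 36.7% and 27.2%, for Dusp1 39.5% and 31.4%, and for Btg2 51.1% and 43.1%. Only for Ier3 was the share labelled IPKO the smaller of the 2 (6.78% and 7.31%), and its intervals overlapped. Free RNA was read only from endothelial markers in AT2 cells and from Sftpc in endothelial-like cells. Free RNA from T and NK cell-like and B cell-like cells, where Klf2 stood at 1296 and 1558 CPM labelled IPKO, was not measured. These cells numbered 80 and 33 labelled IPKO, and 11 and 5 labelled WT. The 20 endothelial markers had in AT2 cells a median of 0.0412% of their endothelial-like level labelled IPKO and 0.0205% labelled WT, and Pecam1, which encodes CD31, had 0.0887% and 0.0500%. At the share of Pecam1, endothelial RNA would give 2.43 CPM of Klf2 labelled IPKO and 1.09 CPM labelled WT, below its AT2 levels of 37.6 and 8.63 CPM. The marker with the highest share had 10.2% labelled IPKO and 8.09% labelled WT. At that share the endothelial-like Klf2 levels (2744 CPM labelled IPKO, 2177 CPM labelled WT) would give more than its AT2 levels. How much of the Klf2 in AT2 cells is endothelial RNA was not tested. Sftpc, at 2.88% of its AT2 level in endothelial-like cells labelled IPKO and 2.42% in those labelled WT, gives its measured share in another cell type.

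The tenth of cells with the most UMIs of a gene held 41.6% (Btg2) to 48.4% (Zfp36) of its thinned UMIs labelled IPKO and 42.6% (Btg2) to 58.7% (Egr1) labelled WT for Egr1, Klf6, Ier2, Btg2, Zfp36 and Dusp1. For the sparse Nr4a1 it held 84.2% labelled IPKO and 100% labelled WT, and for Klf2 and Ier3 100% in both. The variance of Egr1 between cells was 2.53 times its mean labelled IPKO and 2.32 times labelled WT, so the spread between cells was wider than counting error alone. For Btg2, the most widely detected member, this ratio was 1.76 labelled IPKO and 1.44 labelled WT.

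Summed over the 9 genes, an AT2 cell held 5.29 ± 4.29 UMIs of 3000 labelled IPKO and 3.06 ± 2.89 labelled WT (mean ± SD over cells of 1 library). The medians were 4 UMIs labelled IPKO and 2 labelled WT, and 70.4% of cells labelled IPKO lay above the median labelled WT. The distributions overlapped, with lower quartiles of 2 UMIs labelled IPKO and 1 labelled WT and upper quartiles of 7 and 4. No member was detected in 7.25% of cells labelled IPKO and 15.5% labelled WT, and 7 or more members were detected in 1.49% and 0.406%.

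**Figure D2:**
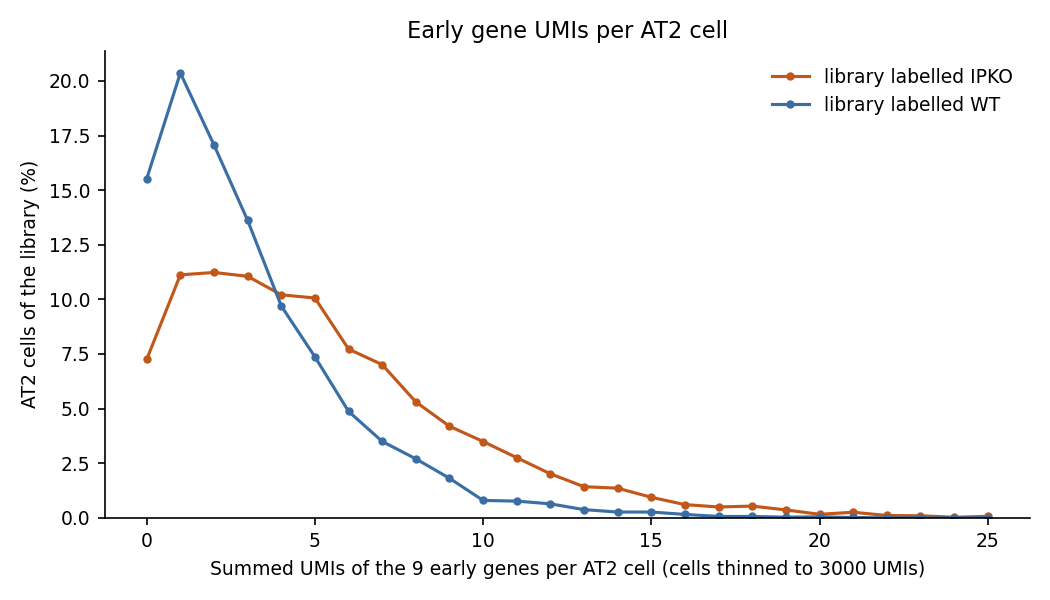
Percent of AT2 cells (vertical axis) by the summed UMIs of the 9 early genes after thinning each cell to 3000 UMIs (horizontal axis, shown to 25), for the library labelled IPKO (orange) and the library labelled WT (blue). The curve labelled IPKO is lower at 0 UMIs (7.25% of cells labelled IPKO, 15.5% labelled WT) and higher from 4 UMIs upward, with no separate second peak.

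Across AT2 cells most members went with Jun, in both libraries. On log(1 + UMIs) of the thinned cells, the median Pearson correlation with Jun was 0.19 labelled IPKO and 0.17 labelled WT, while the median over 2605 genes detected in at least 10% of cells was 0.0074 and 0.0094. These values are descriptions, since the cells share a library and the low counts limit r. Egr1 was the closest to Jun (0.30 labelled IPKO, 0.31 labelled WT), ranking 4 and 3 among those genes. Ier2 had 0.24 and 0.21, Klf6 0.21 and 0.16, Btg2 0.20 and 0.17, and Zfp36 0.18 and 0.18. Dusp1, with 0.19 labelled IPKO and 0.26 labelled WT, came after Egr1 in the library labelled WT, where Ier2 came after Egr1 in the library labelled IPKO. Klf2 and Nr4a1, with few UMIs, had 0.11 and 0.095 labelled IPKO and 0.057 and 0.13 labelled WT. Ier3 stayed near 0 (0.020 labelled IPKO, 0.037 labelled WT). In the library labelled IPKO 8 of the 9 members, and in the library labelled WT 7, lay above the value that 1% of genes exceed (0.089 labelled IPKO, 0.090 labelled WT). Klf2, Nr4a1 and Ier3 did not reach 10% of cells in both libraries and are not among the 2605 genes. Those genes were not matched to the members by detection, on which r depends. The same limits hold for Hspa1a.

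Correlations with Hspa1a were smaller than those with Jun. Their median was 0.090 labelled IPKO and 0.038 labelled WT, and 7 and 5 members lay above the value that 1% of genes exceed (0.051 and 0.037). Egr1 was again the highest, at 0.16 labelled IPKO and 0.091 labelled WT, and Klf6 had 0.13 and 0.033. Klf2 had 0.090 labelled IPKO and -0.0063 labelled WT, where only 2.31% of thinned cells held a Klf2 UMI. Jun and Hspa1a themselves correlated at 0.20 labelled IPKO and 0.099 labelled WT. Hspa1a and its near-identical neighbour Hspa1b can exchange reads, which adds uncertainty to this partner.

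**Figure D3:**
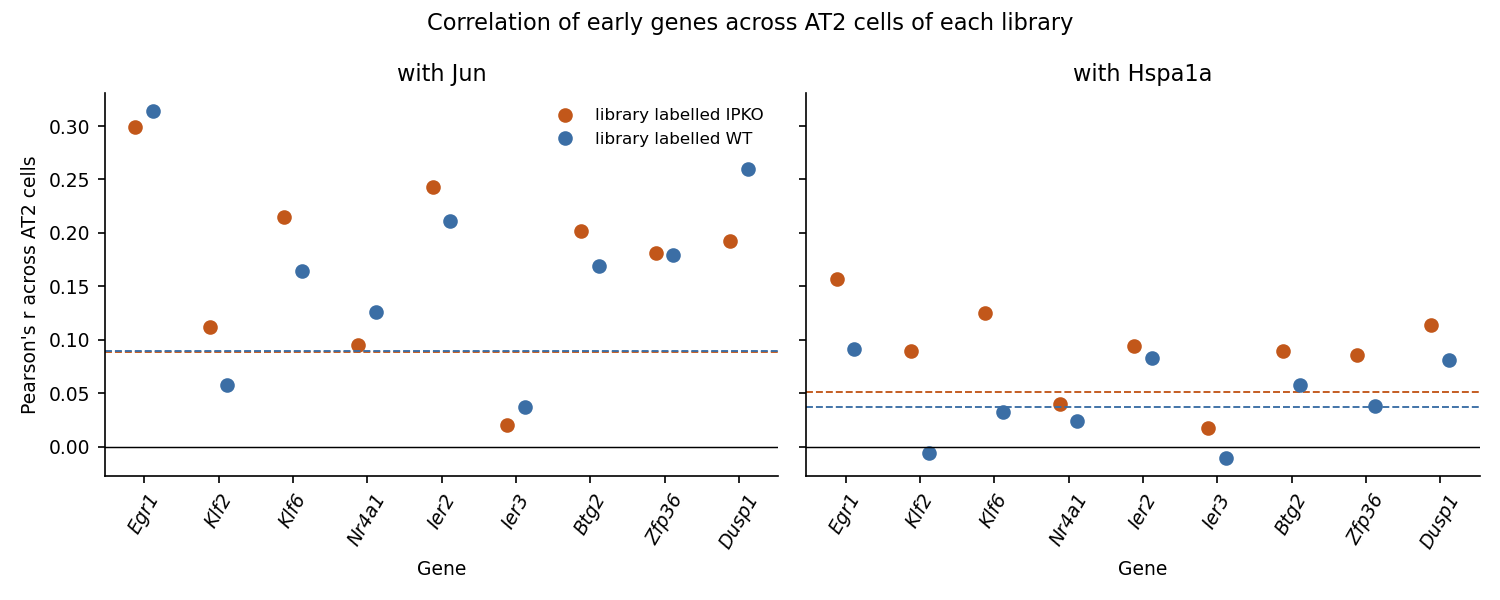
Pearson correlation of each early gene with Jun (left) and Hspa1a (right) across thinned AT2 cells of the library labelled IPKO (orange) and the library labelled WT (blue); dashed lines give the value that 1% of 2605 genes exceed. Egr1 is the highest member in each panel and Ier3 lies near 0.

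The members also correlated with each other, weakly. Over the 36 pairs the median r was 0.082 labelled IPKO and 0.073 labelled WT, from -0.0041 for Nr4a1 with Ier3 to 0.23 for Egr1 with Ier2 in cells labelled IPKO, and up to 0.21 for Egr1 with Dusp1 in those labelled WT. With the sum of the other 8, Egr1 had the highest r (0.35 labelled IPKO, 0.33 labelled WT) and Ier3 the lowest (0.056 and 0.055). Among 2598 other genes, from which Jun and Hspa1a were left out, those most like the sum of the 9 by the lower of both libraries' r were Fos (0.44 labelled IPKO, 0.49 labelled WT), Fosb (0.39 and 0.39), Junb (0.33 and 0.30), Atf3 (0.32 and 0.29) and Jund (0.34 and 0.27), all AP-1 or ATF family genes. Ddx5, Srsf5, Timp3, Mcl1, Trib1 and Rbm39 were further down, to 0.11 labelled IPKO and 0.10 labelled WT for Rbm39. Among the same 2598 genes Fos was also the nearest to 8 of the 9 members taken singly, and for Ier3 it was Phlda1, at 0.038 labelled IPKO and 0.040 labelled WT. Jun, which was not among them, lay nearer to Dusp1 than Fos did by the same measure (Jun 0.19 labelled IPKO and 0.26 labelled WT, Fos 0.18 and 0.29).

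Hspa1a differed more between the libraries than any member, so the comparison was repeated within strata of thinned Hspa1a counts. Without thinning, 77.0% of AT2 cells labelled IPKO and 35.1% of those labelled WT held an Hspa1a UMI. A thinned count of 0 therefore includes cells with Hspa1a UMIs, and the strata do not match Hspa1a levels. Whether the difference depends on Hspa1a was not tested. After thinning, 48.3% of AT2 cells labelled IPKO and 85.3% of those labelled WT held no Hspa1a UMI. In these cells the summed members averaged 4.65 UMIs labelled IPKO and 2.94 labelled WT, a log2 ratio of 0.66 (0.63 to 0.69). With 1 Hspa1a UMI the ratio was 0.50 (4.92 UMIs labelled IPKO, 3.47 labelled WT), and with 2 or more it was 0.57 (6.33 and 4.25). In cells with no Hspa1a UMI, Klf2 (1.73), Ier2 (1.08), Nr4a1 (0.93) and Egr1 (0.86) remained over 1.5-fold higher, and Klf6 (0.57), Zfp36 (0.54) and Dusp1 (0.43) did not.

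The comparison was also repeated within strata of thinned Jun counts, which likewise do not match Jun levels. The log2 ratio of the summed members was 0.48 in cells with 0 Jun UMIs (2.48 UMIs labelled IPKO, 1.78 labelled WT), 0.65 with 1 to 2, 0.44 with 3 to 5 and 0.40 with 6 or more (7.27 and 5.50). From the lowest to the highest Jun stratum, Egr1 had log2 ratios of 0.97, 0.86, 0.52 and 0.37, and Dusp1 0.64, 0.47, 0.21 and 0.11. Klf2 (2.04, 1.56, 1.91 and 1.85) and Ier2 (0.69, 0.95, 0.83 and 0.76) were past 1.5-fold in all 4 strata. Ier3 had 0.01, -0.20, 0.02 and -0.47, and its interval left out 0 only in the highest stratum (-0.84 to -0.09). Jun counts of 6 or more were found in 31.8% of cells labelled IPKO and 11.4% labelled WT.

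The difference was also present within ranges of mitochondrial share and depth. The log2 ratio of the summed members was 0.68 in cells with at most 5% mitochondrial UMIs (5865 labelled IPKO, 2707 labelled WT), 0.83 at 5% to 10% and 0.85 at 10% to 20%. Over 4 ranges of UMIs per cell it lay between 0.73 and 0.83. For Ier3 the log2 ratio was -0.25 (interval -0.47 to -0.02) at up to 5% mitochondrial UMIs. It was -0.05 at 5% to 10% and 0.84 at 10% to 20%, where the intervals held 0. Within a library, the summed members had an r of -0.0044 labelled IPKO and -0.059 labelled WT with the mitochondrial share, and -0.16 and -0.12 with the Sftpc share. Dissociation, which can raise early genes and heat shock genes, cannot be told apart from the label with 1 library each.

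Relatives of the members mostly did not differ as the members did. Of 10 measured KLF genes other than Klf2 and Klf6, none was 1.5-fold higher in AT2 cells labelled IPKO and 3 were lower: Klf9 (97.3 CPM labelled IPKO, 161 CPM labelled WT, log2 ratio -0.73), Klf15 (21.3 and 35.0 CPM, -0.72) and Klf11 (9.21 and 14.2 CPM, -0.63). Klf9 and Klf15 are known glucocorticoid targets. The highest was Klf4, at 35.8 and 29.8 CPM (0.27). Egr2, Egr3 and Egr4 and Nr4a2 and Nr4a3 stayed under 5 CPM, so Egr1 and Nr4a1 were the measured members of their families. The EGR co-repressor genes Nab1 (0.00) and Nab2 (0.12) were near 0. Ier5 was higher (28.4 CPM labelled IPKO, 18.02 labelled WT, 0.66), and Ier5l was not (-0.20).

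Of the 5 measured relatives of Dusp1 only Dusp8 passed 1.5-fold, at 6.74 and 4.204 CPM (0.68), while Dusp4 was lowest at -0.36. Neither Zfp36l1 (0.35) nor Zfp36l2 (0.06), nor any of 4 BTG and TOB genes (from -0.45 for Btg3 to 0.39 for Btg1), passed it. None of 11 measured upstream genes did, from Srf at 0.39 and Hsf1 at 0.26 to Crem at -0.07. Of 25 measured other early genes, Jun included, 10 were higher, led by the matricellular gene Cyr61 (17.8 CPM labelled IPKO, 5.34 CPM labelled WT, 1.74), Fosb (1.13) and Atf3 (1.09), and 2 were lower: the clock gene Per1 (-0.83) and Maff (-0.63). Of 9 heat shock genes 5 were higher.

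In endothelial-like cells the members did not all share the direction seen in AT2 cells. Their levels lay above those in AT2 cells by 0.07 (Egr1) to 6.19 (Klf2) on the log2 scale in the library labelled IPKO, and by 0.47 (Nr4a1) to 7.98 (Klf2) in the library labelled WT. These cells came from 3 clusters in which 17 to 20 of the 20 endothelial markers were high. Pecam1 stood at 1153 CPM labelled IPKO and 1330 CPM labelled WT, against 1.02 and 0.665 CPM in AT2 cells. The median log2 ratio of the 9 genes was -0.37, and that of the 3478 genes with at least 50 CPM was -0.04. By 1.5-fold, 1 member was higher and 4 were lower in cells labelled IPKO. Over all 3478 genes 10.8% were higher and 13.2% lower, a wide background that comes with pools of 242025 UMIs labelled IPKO and 236058 labelled WT.

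Ier3 had 678 CPM (interval 578 to 790) in endothelial-like cells labelled IPKO and 1415 CPM (1267 to 1575) in those labelled WT, a log2 ratio of -1.06 (-1.34 to -0.79). Btg2 had 380 and 792 CPM (-1.06, interval -1.44 to -0.69), and Ier2 649 and 1068 CPM (-0.72, interval -1.02 to -0.43). Zfp36 had 339 and 521 CPM (-0.62, interval -1.04 to -0.21). For these 4 genes the intervals of the levels did not overlap between the libraries. The share of all measured genes without overlap in endothelial-like cells was not computed, so whether these 4 stand out is not known. The intervals also leave out the spread between cells. Dusp1, at 731 and 928 CPM, had a ratio of -0.34 (-0.64 to -0.05). Egr1, at 376 and 487 CPM, had -0.37 (-0.79 to 0.04), and Klf6, at 426 and 398 CPM, 0.10 (-0.32 to 0.51), so both intervals held 0. Jun, at 3483 and 4507 CPM, had -0.37.

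Klf2 was the most abundant member in endothelial-like cells, at 2744 CPM labelled IPKO and 2177 CPM labelled WT (log2 ratio 0.33, interval 0.17 to 0.50). Nr4a1 was the 1 member past 1.5-fold higher, from 33 UMIs in 12 cells labelled IPKO and 8 UMIs in 7 cells labelled WT (136 and 33.9 CPM, log2 ratio 2.01, interval 0.87 to 3.33). In the largest cluster alone its log2 ratio was 0.72, from 10 UMIs labelled IPKO and 5 labelled WT. Hspa1a, at 1673 and 373 CPM, was higher labelled IPKO in this class too (2.17, interval 1.83 to 2.52). AT2 RNA at the Sftpc share above would make up at most 2.74% of any member's endothelial-like level labelled IPKO and 1.75% labelled WT.

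**Figure D4:**
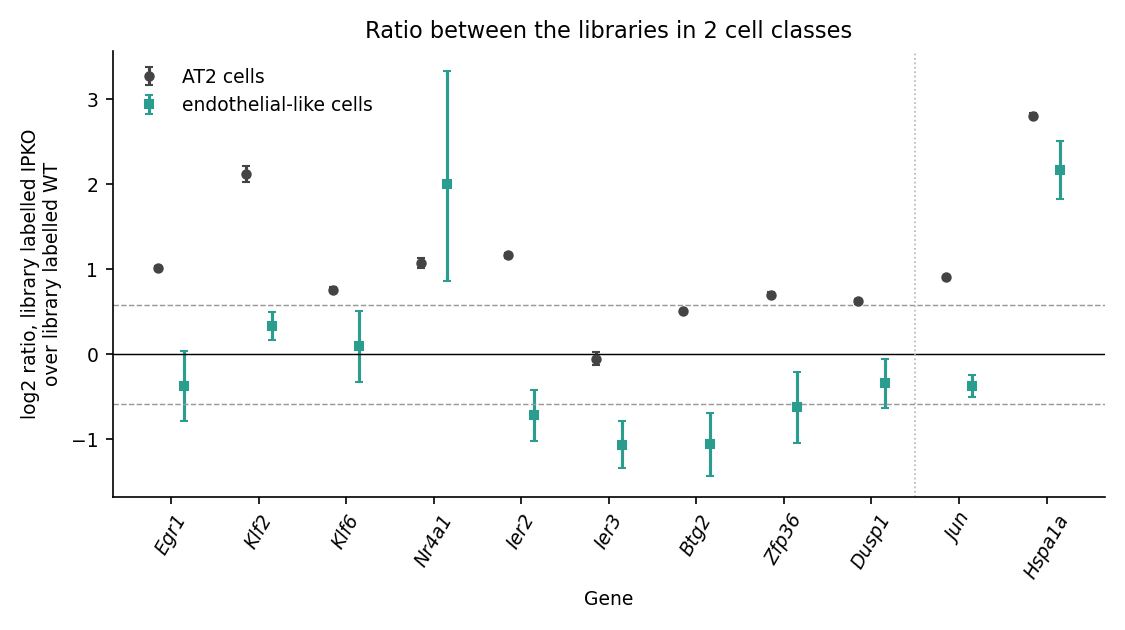
log2 ratio of the IPKO-labelled over the WT-labelled library for each gene in AT2 cells (dark circles) and endothelial-like cells (green squares), with 95% counting intervals; dashed lines mark 1.5-fold. Ier2, Btg2, Zfp36 and Dusp1 lie above 0 in AT2 cells and below 0 in endothelial-like cells, while Hspa1a is above 2 in both.

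The 3 endothelial-like clusters differed in their early genes. The largest, with Gpihbp1 among its leading genes, held 51 cells labelled IPKO and 47 labelled WT. In it Ier3 had 741 CPM labelled IPKO and 1578 CPM labelled WT, and Btg2 414 and 907 CPM. A cluster led by Ednrb and Car4, with 8 cells in each library, held 14 Nr4a1 UMIs labelled IPKO and 2 labelled WT. The cluster led by Vwf, with 6 cells labelled IPKO and 10 labelled WT, had the most Egr1 of the 3 (1141 CPM labelled IPKO and 1155 CPM labelled WT) and the most Klf2 (4357 and 2772 CPM). In the largest cluster Egr1 had 298 and 322 CPM. Fewer than 11 cells per library stand behind each value of the smaller clusters, and clustering left the members, Jun and Hspa1a out.

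**Figure D5:**
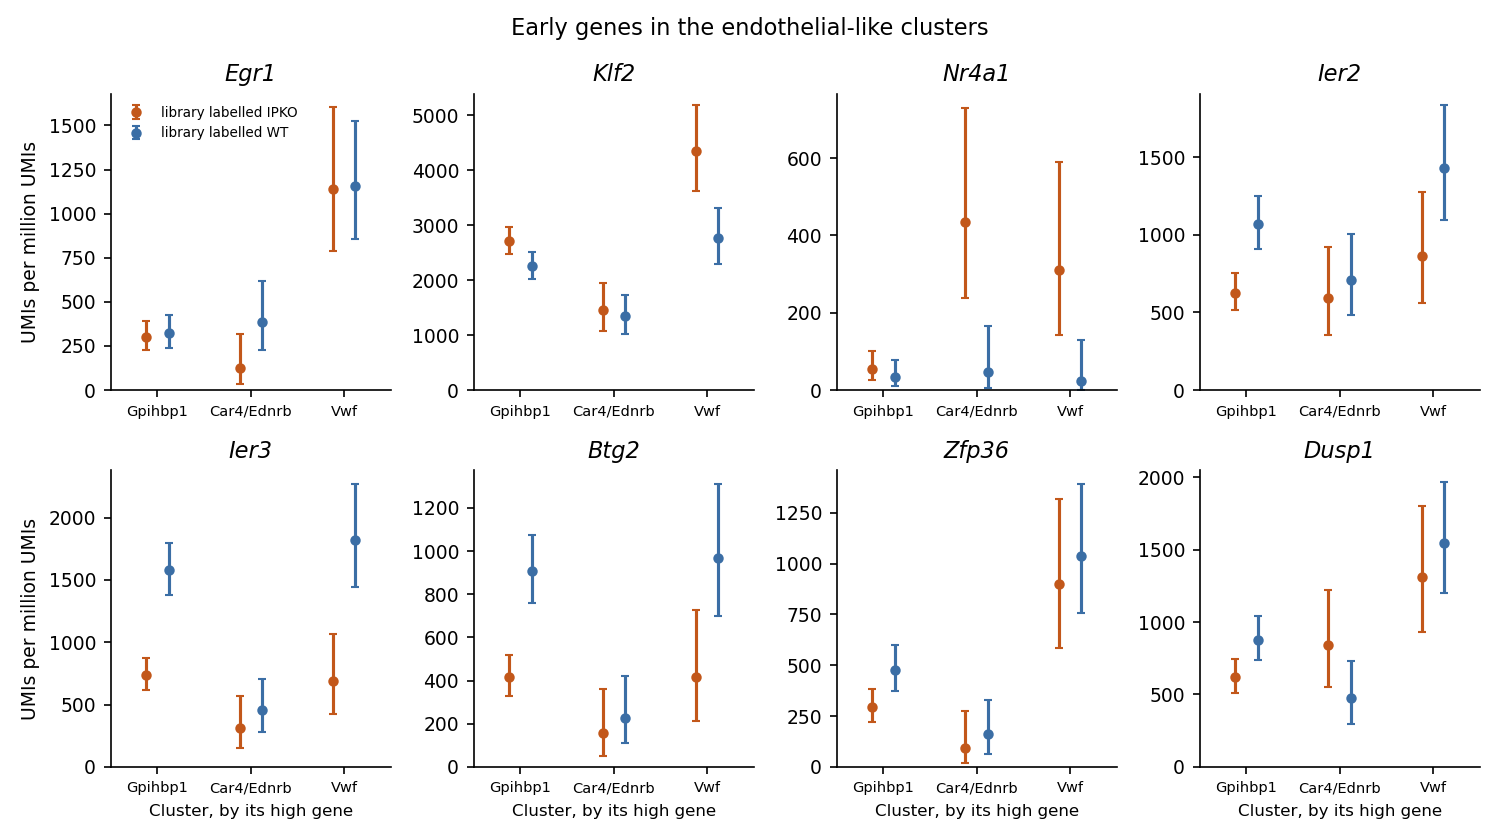
Levels of 8 early genes in CPM in the 3 endothelial-like clusters, named on the horizontal axis by a gene high in each, for the library labelled IPKO (orange) and the library labelled WT (blue), with 95% counting intervals. Ier3 and Btg2 are lower labelled IPKO in the Gpihbp1 cluster (741 and 414 CPM labelled IPKO, 1578 and 907 CPM labelled WT), and Egr1 is highest in the Vwf cluster.

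Cell by cell, with each endothelial-like cell thinned to 1500 UMIs, the summed members averaged 11.04 ± 5.72 UMIs in 50 cells labelled IPKO and 12.2 ± 6.82 in 56 cells labelled WT (SD over cells). Shallower cells, 15 labelled IPKO and 9 labelled WT, were not used. AT2 cells at the same depth averaged 2.63 labelled IPKO and 1.52 labelled WT. Klf2 was detected in 45 of 50 endothelial-like cells labelled IPKO and 50 of 56 labelled WT, where AT2 cells had it in 5.01% and 1.33%. Across these cells the summed members correlated with Jun at 0.50 labelled IPKO and 0.38 labelled WT, and with Hspa1a at 0.35 and 0.20. AT2 cells at 1500 UMIs gave 0.33 and 0.29 with Jun, and 0.18 and 0.084 with Hspa1a. In endothelial-like cells Egr1, unlike in AT2 cells, had an r near 0 with Jun (-0.053 labelled IPKO, 0.031 labelled WT), and Ier2 had the highest (0.41 and 0.36). With 50 and 56 cells these coefficients are descriptions only, and the difference between classes was not tested.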

How the data were processed

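Libraries were made with the 10x Chromium 3' kit v3.1 and sequenced on a NovaSeq 6000, per the labels' protocols. The matrices hold UMI counts as deposited, not normalized, and Cell Ranger 4.0.0 and GRCm38 (mm10) are named in the submitters' processing notes. Positions come from GENCODE vM21 (27722 of 27998 genes matched) and promoters from RefSeq.

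Barcodes with under 500 genes or over 20% mitochondrial UMIs were removed, which kept 80.6% labelled IPKO and 75.6% labelled WT. No doublet caller was run, and leaving out the 5% of AT2 cells with the most UMIs was an alternative. Just inside the AT2 rule, 41 cells labelled IPKO and 35 labelled WT held 10% to 11% Sftpc, and just outside it 54 and 28 held 9% to 10%. Other kept cells were clustered (scanpy 1.11.5, 2000 variable genes, 30 components, 15 neighbours, Leiden resolution 1). A cluster was named where at least 3 markers and 50% of a type's list, at least 2 times the share of the next type, were detected in 20% of its cells at 4-fold the level of other cells, and 1 or more led it. This naming rule was set after the clusters were seen.

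Counts were summed per class and library and set against each other as CPM, the IPKO-labelled library on top, with exact conditional binomial intervals for ratios, Poisson intervals for levels and Clopper-Pearson intervals for shares (scipy 1.17.1). Alternatives used TMM factors (edgeR 4.0.16) and size factors (DESeq2 1.42.0) without their tests. The steps were checked on simulated counts. The text names all members, up to 3 highest and 3 lowest relatives per group, and the 12 genes most like the summed members, of which 1 is not reported here. The members and lists were chosen with earlier results of these data known.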

Additional observations from a re-analysis of the deposited data

Results flagged for a closer look

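For 4 of the early response genes the ratio between the libraries ran in opposite directions in the 2 cell classes, with both counting intervals clear of 0. The share of all measured genes that meet this rule was not computed, so whether 4 is unusual is not known. The log2 ratios, IPKO-labelled over WT-labelled, were 1.16 in AT2 cells and -0.72 in endothelial-like cells for Ier2, 0.50 and -1.06 for Btg2, 0.70 and -0.62 for Zfp36, and 0.62 and -0.34 for Dusp1. With 1 library per label the difference between the classes was not tested. Dusp1 in endothelial-like cells turned to 0.30 when these cells were taken by detected markers and not by cluster. Endothelial-like cells had a median of 2911 UMIs labelled IPKO and 3192 labelled WT, and Hspa1a was higher labelled IPKO in both classes (log2 ratios 2.81 in AT2 cells and 2.17 in endothelial-like cells). The part of depth, heat shock and dissociation in these differences was not tested.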

How the results depend on the processing

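The median log2 ratio of the 9 genes in AT2 cells, 0.76, stayed above 0 under all 13 alternatives. It was 0.69 with TMM scaling, 0.68 with DESeq2 size factors and 0.73 with CPM over all genes but Sftpc and mitochondrial ones. After thinning to 3000 UMIs it was 0.79, and 0.57 in the thinned cells without an Hspa1a UMI. In the removed barcodes it was 0.98, and the last 2 were chosen after seeing the data. TMM moved all ratios by -0.07. Egr1, Klf2, Nr4a1 and Ier2 passed 1.5-fold in 13 of 13 alternatives, Klf6 and Zfp36 in 12, Dusp1 in 9, and Btg2 and Ier3 in 0. The median share of cells with a UMI was 24.7% labelled IPKO and 16.1% labelled WT at 1500 UMIs, 55.5% and 43.2% at 6000, and 76.0% and 71.2% without thinning. The median r with Jun was 0.260 labelled IPKO and 0.257 labelled WT at 6000 UMIs, 0.323 and 0.347 without thinning, and 0.165 labelled IPKO in cells of middle depth. That with Hspa1a was 0.115 labelled IPKO at 6000 UMIs, and 0.141 and 0.0650 without thinning. The background share of higher genes was 2.72% at a minimum of 1 CPM.

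In endothelial-like cells the median kept its sign under all 8 alternatives. Clustering at resolution 0.5 or 2.0 gave 65 cells per library and the same ratios as the main setting, so these add no separate check. Taken by at least 4 detected markers, Dusp1 turned to 0.30, Klf2 stood at 1.12, Klf6 at 0.71, Ier3 at -0.34 and Zfp36 at -0.20. In 2 alternatives added after seeing the data, Egr1 stood at -0.80 and Klf2 at 0.63 without the 5 deepest cells per library, and Nr4a1 at 0.72 in the largest cluster alone. The causes were not tested. No paired analysis was possible because each label has 1 library.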

Other observations

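Other cells that passed the sort carried their own early gene profiles. Klf2 stood at 1296 CPM in 80 T and NK cell-like cells labelled IPKO and 853 CPM in 11 labelled WT, and at 1558 CPM in 33 B cell-like cells labelled IPKO and 331 CPM (7 UMIs) in 5 labelled WT. Ier3 had 0 UMIs in B cell-like cells of both libraries, with exact upper limits of 22.8 CPM labelled IPKO and 174 CPM labelled WT. Dusp1 was highest in neutrophil-like cells, at 6087 CPM in 10 cells labelled IPKO and 5309 CPM in 6 labelled WT, where Btg2 had 3301 and 3260 CPM. Egr1 reached 1550 CPM in 16 mesenchymal-like cells labelled IPKO and 1611 CPM in 14 labelled WT. Nr4a1 had 504 CPM in 40 macrophage and monocyte-like cells labelled IPKO and 117 CPM in 13 labelled WT. AT1-like cells, 20 labelled IPKO and 21 labelled WT, had 131 and 135 CPM of Egr1, 110 and 335 CPM of Ier3 and 267 and 586 CPM of Klf6. Few cells stand behind each of these values, and none was tested.

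The genes that ran opposite to the summed members across AT2 cells in both libraries, chosen after their values were seen, were Scd1 (r -0.17 labelled IPKO, -0.13 labelled WT), Sftpc (-0.16 and -0.12), Npc2 (-0.17 and -0.12), Lrg1 (-0.13 and -0.11), Fabp5 (-0.14 and -0.11) and Fdps (-0.11 and -0.11). Scd1 and Fdps act in fatty acid and sterol synthesis, and Sftpc encodes a surfactant protein. The 9 genes and these genes were counted in the same thinned cells, and what moves them apart was not tested.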
